A study of Homo sapiens with 8 samples.

Results

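CLECL1, CLEC2D, CD69 and CLEC2B are genes of the C-type lectin cluster on the short arm of human chromosome 12, and they were followed in 2 lymphoma cell lines given iEZH. The 4 genes were selected by symbol from the 14410 gene symbols held in the tables of either line, with their changes in these same libraries already known. Every value of a change in these 4 genes is therefore given as a description, and nothing is read from whether it was called in a fit across all genes. CLECL1 was 3.05 times as high with iEZH as with DMSO in SUDHL6 cells and 0.471 times as high in HT cells, while its closest lectin neighbour, CLEC2D, was at 0.813 and 0.811 times its DMSO level in the same lines.

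The genes were measured by RNA sequencing in 4 groups of 2 libraries, 8 libraries in all, taken after 96 hours (day 4). These were SUDHL6 cells with iEZH, SUDHL6 cells with DMSO, HT cells with iEZH and HT cells with DMSO, where iEZH is taken to be the small-molecule inhibitor of the Polycomb complex PRC2 that the study's title names and DMSO is the usual solvent control. SUDHL6 and HT are established lines of diffuse large B cell lymphoma, each grown from the tumour of 1 person, and all groups grew in the same serum-containing medium without other cells. The labels state neither the dose and chemical identity of iEZH nor whether the 2 libraries of a group came from separate cultures, so p-values measure only the spread between these libraries, which may be technical.

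C-type lectin-like receptors of this cluster are membrane proteins through which lymphocytes, natural killer cells and dendritic cells recognise one another. CLEC2D is the ligand of the receptor KLRB1 (CD161) on natural killer and T cells, CLEC2B is the ligand of the natural killer receptor KLRF1, and CLECL1 is known from dendritic cells and B cells as a T cell co-stimulatory molecule. CD69 is an early marker of lymphocyte activation that removes the receptor S1PR1 from the cell surface and so keeps cells in the tissue. PRC2, with its catalytic subunit EZH2, places a repressive methyl mark on histone H3 and holds many differentiation genes silent in germinal centre B cells.

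Total reads ran from 59563321 to 94821806 per library, and 13036 genes of SUDHL6 and 13701 of HT had values. The values are FPKM, fragments scaled to transcript length and to the mapped total of the library, so levels of different genes can be set side by side within a line. The 2 tables were made separately, and no level was compared between the lines. The B cell markers MS4A1, CD79A, CD79B, PAX5, CD22, BLNK and CD74 each reached 1 FPKM in at least 2 libraries of both lines. Of 15 T and natural killer cell markers, 1 had values in SUDHL6 and 8 in HT, and 0 passed that level in either line. Of 9 myeloid and dendritic cell markers, LAMP3 in HT was the 1 that passed it, with 11.6 and 19.9 FPKM with iEZH, against 6.06 and 9.02 FPKM with DMSO.

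CLECL1 lies on the minus strand of chromosome 12 at 9868456 to 9885895 (hg19). In SUDHL6 it had 44.2 and 44.4 FPKM with iEZH, against 16.6 and 12.4 FPKM with DMSO. The iEZH libraries nearly coincided and both exceeded the higher DMSO library. The means were 44.3 ± 0.108 FPKM with iEZH and 14.5 ± 3.01 FPKM with DMSO (SD, n = 2 each), a difference of 1.56 ± 0.17 (SE) on the log2(FPKM + 1) scale. That scale understates the change of genes with low values.

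In HT, CLECL1 had 2.04 and 2.54 FPKM with iEZH, against 5.13 and 4.6 FPKM with DMSO. Here both iEZH libraries lay below both DMSO libraries. The means were 2.29 ± 0.35 FPKM with iEZH and 4.86 ± 0.371 FPKM with DMSO (SD, n = 2 each), a log2 difference of -0.84 ± 0.14 (SE). The 4 myeloid and dendritic cell markers with values in HT summed to 13.1 and 21.6 FPKM with iEZH, against 7.29 and 10.1 FPKM with DMSO. Most of these sums was LAMP3, at 11.6 and 19.9 FPKM with iEZH, against 6.06 and 9.02 FPKM with DMSO. LYZ had the same order at under 1 FPKM, and the groups of CD14 and CD1C overlapped. The part of such cells in the CLECL1 values was not tested. In these bulk libraries, fewer cells of a type and less RNA per cell cannot be told apart.

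The place of CLECL1 among all genes differed accordingly. In SUDHL6 its mean was above that of 83.9% of 12706 genes of 300 bp or more with iEZH and above 56.0% of them with DMSO. In HT it was above 23.5% of 13333 such genes with iEZH and above 34.0% with DMSO. CLECL1 thus stood higher among the genes of treated SUDHL6 cells than among those of their controls, and lower in treated HT cells than in theirs.

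CLEC2D lies 16.3 kb from CLECL1, on the plus strand at 9822308 to 9852151 (hg19), and overlaps a processed pseudogene on the same strand. It is the 1 gene of the 4 with an entry in the RefSeq promoter table (GRCh38.p14, a later build than that of the expression files), where 250 bases before and 50 bases after its start span chr12:9669463-9669762 on the plus strand. The sequence is shown because it carries few CG dinucleotides, which are in capitals, 5′ to 3′.
CLEC2D promoter: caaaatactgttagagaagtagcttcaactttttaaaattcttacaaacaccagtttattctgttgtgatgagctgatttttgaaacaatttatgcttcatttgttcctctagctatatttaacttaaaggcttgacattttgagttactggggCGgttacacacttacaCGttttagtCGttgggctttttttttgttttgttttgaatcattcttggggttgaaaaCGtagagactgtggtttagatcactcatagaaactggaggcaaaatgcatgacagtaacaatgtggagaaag
It holds 4 CG dinucleotides and 34.7% G and C, against medians of 14 and 58.7% over all promoters of the table, and 29.6% of those promoters hold at most 4. The promoters of CLECL1, CD69 and CLEC2B are not shown.

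CLEC2D had the highest FPKM of the lectin genes with values in every group (3 genes in SUDHL6, 4 in HT) apart from treated SUDHL6 cells, where CLECL1 and CLEC2D overlapped. In SUDHL6 it had 39.0 and 45.2 FPKM with iEZH, against 44.6 and 59.0 FPKM with DMSO, and the groups overlapped. The means were 42.1 ± 4.36 FPKM with iEZH and 51.8 ± 10.2 FPKM with DMSO (SD, n = 2 each), a log2 difference of -0.28 ± 0.18 (SE). The HT values were 19.6 and 24.9 FPKM with iEZH, against 25.8 and 29.1 FPKM with DMSO. Both iEZH libraries lay below both DMSO libraries there, with means of 22.3 ± 3.74 FPKM with iEZH and 27.5 ± 2.28 FPKM with DMSO (SD, n = 2 each) and a log2 difference of -0.30 ± 0.16 (SE). With 1 library left out the difference ran from -0.48 to -0.08 in SUDHL6 (without DMSO replicate 1 and DMSO replicate 2) and from -0.46 to -0.13 in HT (without iEZH replicate 2 and iEZH replicate 1).

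CD69 lies 19.2 kb beyond CLECL1, on the minus strand at 9905082 to 9913497 (hg19). In SUDHL6 it had 0.159 and 0.207 FPKM with iEZH, against 0.151 and 0.297 FPKM with DMSO. The groups overlapped, and each of these values was below the level that the file headers give for 50 reads in its library, 0.264 to 0.42 FPKM. HT cells had 0.448 and 0.389 FPKM with iEZH, against 1.27 and 1.03 FPKM with DMSO. Both iEZH libraries lay below both DMSO libraries, with means of 0.419 ± 0.0413 FPKM with iEZH and 1.15 ± 0.169 FPKM with DMSO (SD, n = 2 each), 0.365 times as high, and a log2 difference of -0.60 ± 0.12 (SE). With a pseudocount of 0.1 in place of 1 the same difference was -1.26.

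CLEC2B lies at the far end of the cluster, on the minus strand at 10004968 to 10022458 (hg19), and the 4 genes together span 200 kb. An antisense gene overlaps CLEC2B, and the strand of the reads is not given in the sources used here, so reads of the pair cannot be told apart. Its HT values were 0.48 and 0.628 FPKM with iEZH, against 0.665 and 0.742 FPKM with DMSO. Both iEZH libraries lay below both DMSO libraries, with means of 0.554 ± 0.105 FPKM with iEZH and 0.704 ± 0.0546 FPKM with DMSO (SD, n = 2 each), 0.788 times as high, and no library reached 1 FPKM. CLEC2B in SUDHL6 was not analysed here.

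**Figure D1:**
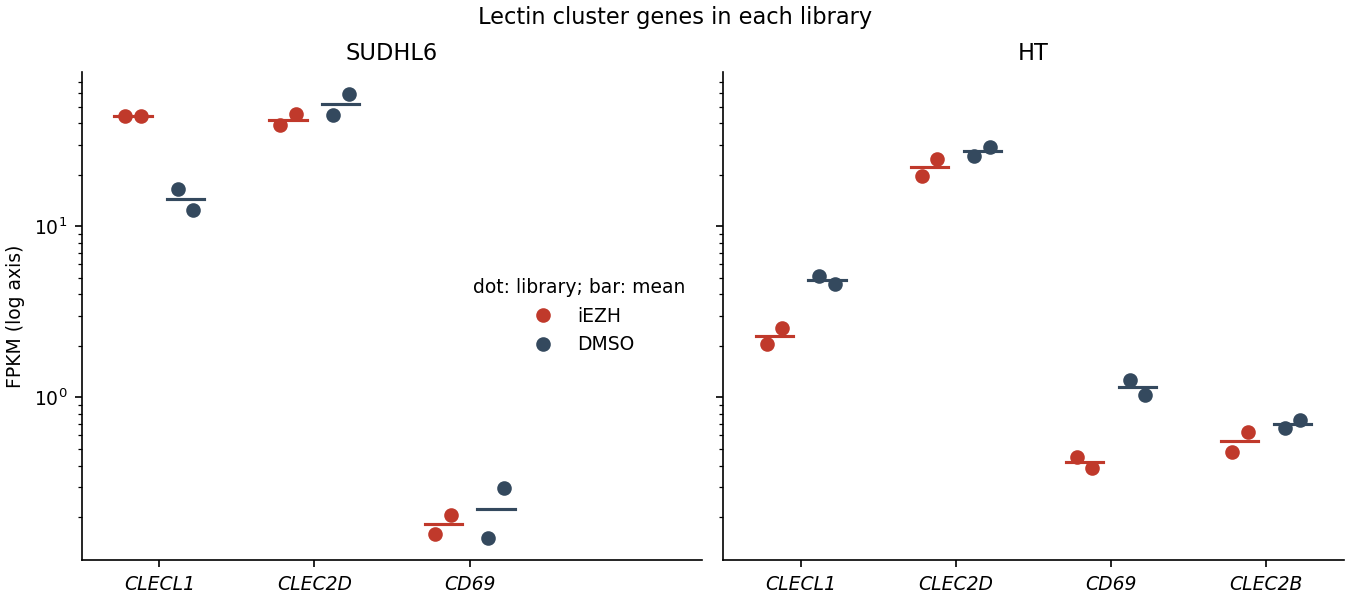
FPKM (log axis) of each lectin gene in each library, SUDHL6 at left and HT at right, with dots for libraries and bars for the mean of 2. CLECL1 with iEZH lies above its DMSO values in SUDHL6 and below them in HT, CLEC2D stays close to its DMSO values in both lines, and CD69 is at most 0.297 FPKM in SUDHL6.

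The fits across all genes used limma on log2(FPKM + 1) without a replicate block, with calls at a Benjamini-Hochberg adjusted p of 0.05. A gene entered them where 2 or more of a line's 4 libraries reached 1 FPKM. CLECL1 and CLEC2D passed this filter in both lines, CD69 passed it in HT only, through its DMSO libraries, and CLEC2B did not pass. In SUDHL6, 0 of the 2 genes tested were called, where 0.269% of 11173 genes were called. In HT, 0 of the 3 genes tested were called, where 0.609% of 11321 genes were called. At an unadjusted p under 0.05 these counts were 1 of 2 and 2 of 3, where 18.8% and 21.4% of all genes tested in SUDHL6 and HT had such a p. Since the genes were chosen on these contrasts, nothing is read from the counts.

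Both iEZH libraries lay below both DMSO libraries for all 4 genes in HT, an order that 23.4% of the genes tested in HT also had. CLEC2B was not among the genes tested and CD69 was tested through its DMSO libraries only, so that share is no background for them. In SUDHL6, CLECL1 was the 1 of 3 genes with both iEZH libraries above both DMSO libraries, an order that 28.9% of the genes tested in SUDHL6 had, and 20.6% had the reverse. The combination seen in CLECL1, above in SUDHL6 and below in HT, was shared by 3.36% of the 10426 genes tested in both lines, and the reverse combination by 2.63%.

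The log2 change of CLECL1 in SUDHL6 exceeded that in HT by 2.40 ± 0.22 (SE) in a fit of all 8 libraries. CLECL1 was the 1 of 2 lectin genes called for this difference, where 0.106% of 10426 genes were called. Since CLECL1 was chosen on this contrast, nothing is read from the call, which was lost without any 1 of the 4 HT libraries and without either SUDHL6 iEZH library, while the difference itself stayed between 2.20 and 2.60 with any 1 library left out. For CLEC2D the change in SUDHL6 exceeded that in HT by 0.01 ± 0.25 (SE).

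Among the 10308 genes of 300 bp or more tested in both lines, the difference of CLECL1 between the lines ranked 5 from the top. Its change in SUDHL6 also ranked 5 from the top, and its change in HT ranked 104 from the bottom. No other of these genes had both changes at least this far out, but the margin was small: the histone gene HIST1H2AC differed by 1.54 in SUDHL6 and -0.85 in HT, beside 1.56 and -0.84 for CLECL1, with overlapping HT groups. In all, 19 genes were at least 0.5 higher in SUDHL6 and 0.5 lower in HT on the log2 scale, against 11 with the reverse. They included CLECL1, the stress gene DDIT4, the receptor gene P2RY11, C1RL, IDNK and several histone genes, and RPPH1, HIST1H2AI, SCARNA10 and SCARNA7 had larger differences between the lines than CLECL1. With genes under 300 bp included, CLECL1 ranked 48 of 10426 for the difference and 13 genes, itself among them, had both changes at least this far out.

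A ratio taken within a library does not depend on how that library was scaled. The ratio of CLECL1 to CLEC2D in SUDHL6 was 1.13 and 0.983 with iEZH, against 0.373 and 0.21 with DMSO. In HT it was 0.104 and 0.102 with iEZH, against 0.198 and 0.158 with DMSO. The groups did not overlap in either line, and the order was opposite in the lines. Treated SUDHL6 cells therefore held about as much CLECL1 as CLEC2D per transcript length, while in treated HT cells CLECL1 was far below CLEC2D.

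The other genes gave ratios to CLEC2D that could be read in HT. The ratio of CD69 to CLEC2D was 0.0228 and 0.0156 with iEZH, against 0.049 and 0.0353 with DMSO, and the groups did not overlap. The ratio of CLEC2B to CLEC2D was 0.0245 and 0.0252 with iEZH, against 0.0257 and 0.0255 with DMSO, nearly the same in all 4 libraries.

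Within 500 kb of CLECL1 the tables held 5 further genes in SUDHL6 and 8 in HT. The fits called 0 of the 4 tested in SUDHL6 and 0 of the 6 tested in HT (limma), and 2 in each line had an unadjusted p under 0.05, as did 18.8% of all genes tested in SUDHL6 and 21.4% in HT. Their median log2 change was -0.33 in SUDHL6, beside 0.04 over all genes tested there, and -0.25 in HT, beside 0.02. In SUDHL6, 1 was higher and 3 were lower with iEZH, and in HT 1 was higher and 5 were lower.

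LOC374443, a transcribed pseudogene in RefSeq whose reads may be shared with related genes, is the nearest on the other side of CLEC2D, 11.3 kb away. In SUDHL6 it had 4.77 and 4.4 FPKM with iEZH, against 5.63 and 5.44 FPKM with DMSO, a log2 difference of -0.23 ± 0.10 (SE, limma adjusted p = 0.335). In HT it had 1.43 and 1.58 FPKM with iEZH, against 3.11 and 3.22 FPKM with DMSO, a log2 difference of -0.73 ± 0.12 (SE, limma adjusted p = 0.0588). The iEZH libraries lay below the DMSO libraries in both lines. In the fits per line without a replicate block and with all genes tested, neither change passed the threshold. The HT change passed it with genes under 300 bp left out (limma adjusted p = 0.0323) and with both lines in 1 fit (limma adjusted p = 0.0181). It also passed with a replicate block, whose meaning the labels do not state (limma adjusted p = 0.00955). It did not pass with a pseudocount of 0.1 (limma adjusted p = 0.0657) or with no filter (limma adjusted p = 0.0922). With 1 library left out the log2 difference ran from -0.69 to -0.78.

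The ratio of CLECL1 to LOC374443 differed between the treatments in SUDHL6, at 9.28 and 10.1 with iEZH, against 2.96 and 2.28 with DMSO. In HT it was 1.43 and 1.6 with iEZH, against 1.65 and 1.43 with DMSO, and the groups overlapped. CLECL1 thus kept its proportion to LOC374443 in HT within the spread of the libraries and exceeded it in treated SUDHL6 cells.

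**Figure D2:**
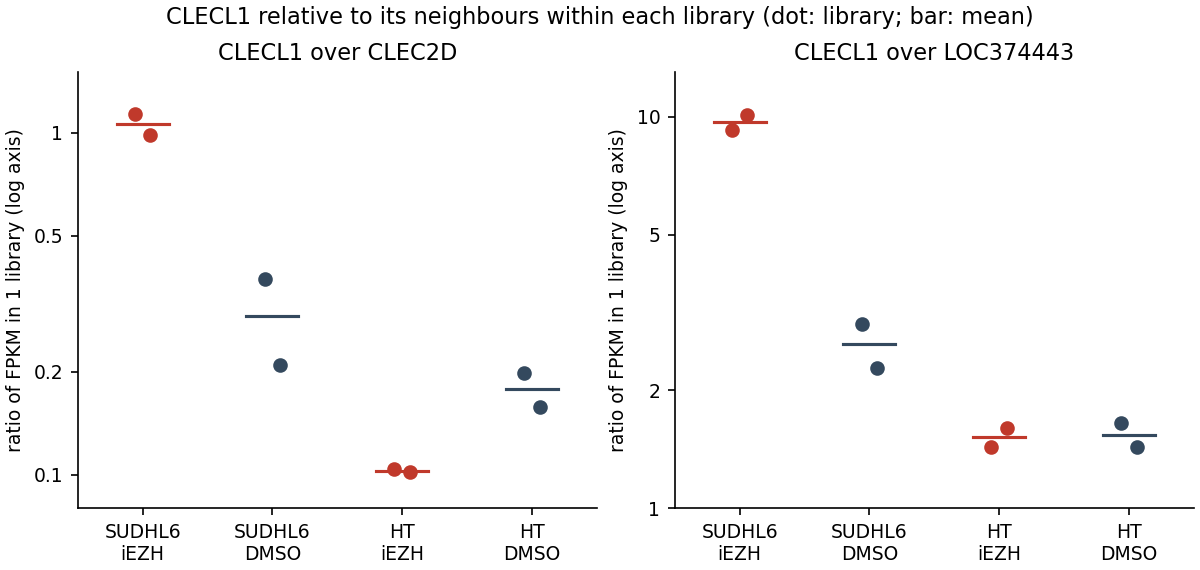
Ratio of CLECL1 to CLEC2D (left) and to LOC374443 (right) in each library, as FPKM over FPKM on a log axis, with dots for libraries and bars for the mean of 2. In SUDHL6 both ratios are higher with iEZH than with DMSO, whereas in HT the first is lower and the second overlaps between the treatments.

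KLRF1, the receptor that binds CLEC2B, lies between CD69 and CLEC2B, 7.36 kb from CLEC2B. In HT it had 0.302 and 0.611 FPKM with iEZH, against 0.947 and 1.22 FPKM with DMSO, below the filter but with no overlap between the groups. The 8 T and natural killer cell markers with values in HT, KLRF1 among them, summed to 3.04 and 4.31 FPKM with iEZH, against 2.86 and 2.6 FPKM with DMSO. PRF1, CD8A, NCAM1, CD3E, CD3D and CD3G had both iEZH libraries above both DMSO libraries, the reverse of KLRF1, and NKG7 overlapped. CD3D and CD3G were at the lowest deposited value, 0.0613 FPKM, in both HT DMSO libraries. The part of such cells in the KLRF1 values was not tested.

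CLEC7A, the beta-glucan receptor dectin, lies 383 kb from CLECL1. In HT it had 17.6 and 18.7 FPKM with iEZH, against 24.3 and 24.9 FPKM with DMSO, a log2 difference of -0.42 ± 0.12 (SE, limma adjusted p = 0.126). The libraries of the groups did not overlap, but the difference did not pass the threshold in the fit without a replicate block. With the block it did (limma adjusted p = 0.0269). OLR1, a receptor for oxidised lipoprotein, had 0.681 and 0.847 FPKM with iEZH, against 0.982 and 0.699 FPKM with DMSO in HT, and the groups overlapped.

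GABARAPL1, an autophagy gene at the edge of this window, had the opposite sign in HT. It had 2.14 and 2.42 FPKM with iEZH, against 1.53 and 1.76 FPKM with DMSO, a log2 difference of 0.31 ± 0.13 (SE, limma adjusted p = 0.254). In SUDHL6 it was below the filter, at 0.309 and 0.413 FPKM with iEZH, against 0.318 and 0.625 FPKM with DMSO. On the other side lay DDX12P, LOC642846 and LOC100499405, of which DDX12P is a pseudogene with close copies, so that its reads may be split. In SUDHL6 DDX12P had 13.5 and 10.7 FPKM with iEZH, against 19.7 and 15.3 FPKM with DMSO, LOC642846 had 10.3 and 8.46 against 14.5 and 11.6 FPKM, and LOC100499405 had 11.5 and 7.04 against 9.42 and 4.15 FPKM. The iEZH libraries of DDX12P and LOC642846 thus lay below their DMSO libraries, and those of LOC100499405 overlapped. The HT groups of these 3 genes overlapped, at 6.56 to 17.6 FPKM with iEZH and 7.67 to 18.4 FPKM with DMSO.

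In HT the 7 consecutive genes with values from LOC374443 to CLEC7A (LOC374443, CLEC2D, CLECL1, CD69, KLRF1, CLEC2B and CLEC7A) each had both iEZH libraries below both DMSO libraries, an order found in 23.4% of the genes tested in HT. This stretch was noticed after its values were seen, and CLECL1, CLEC2D, CD69 and CLEC2B were chosen with their changes known. KLRF1 and CLEC2B were under the filter and CD69 passed it through its DMSO libraries only. The share over genes tested is therefore no background for this stretch, and nothing is read from it. In SUDHL6, LOC374443 had both iEZH libraries below both DMSO libraries, CLECL1 had the reverse, and CLEC2D and CD69 overlapped.

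**Figure D3:**
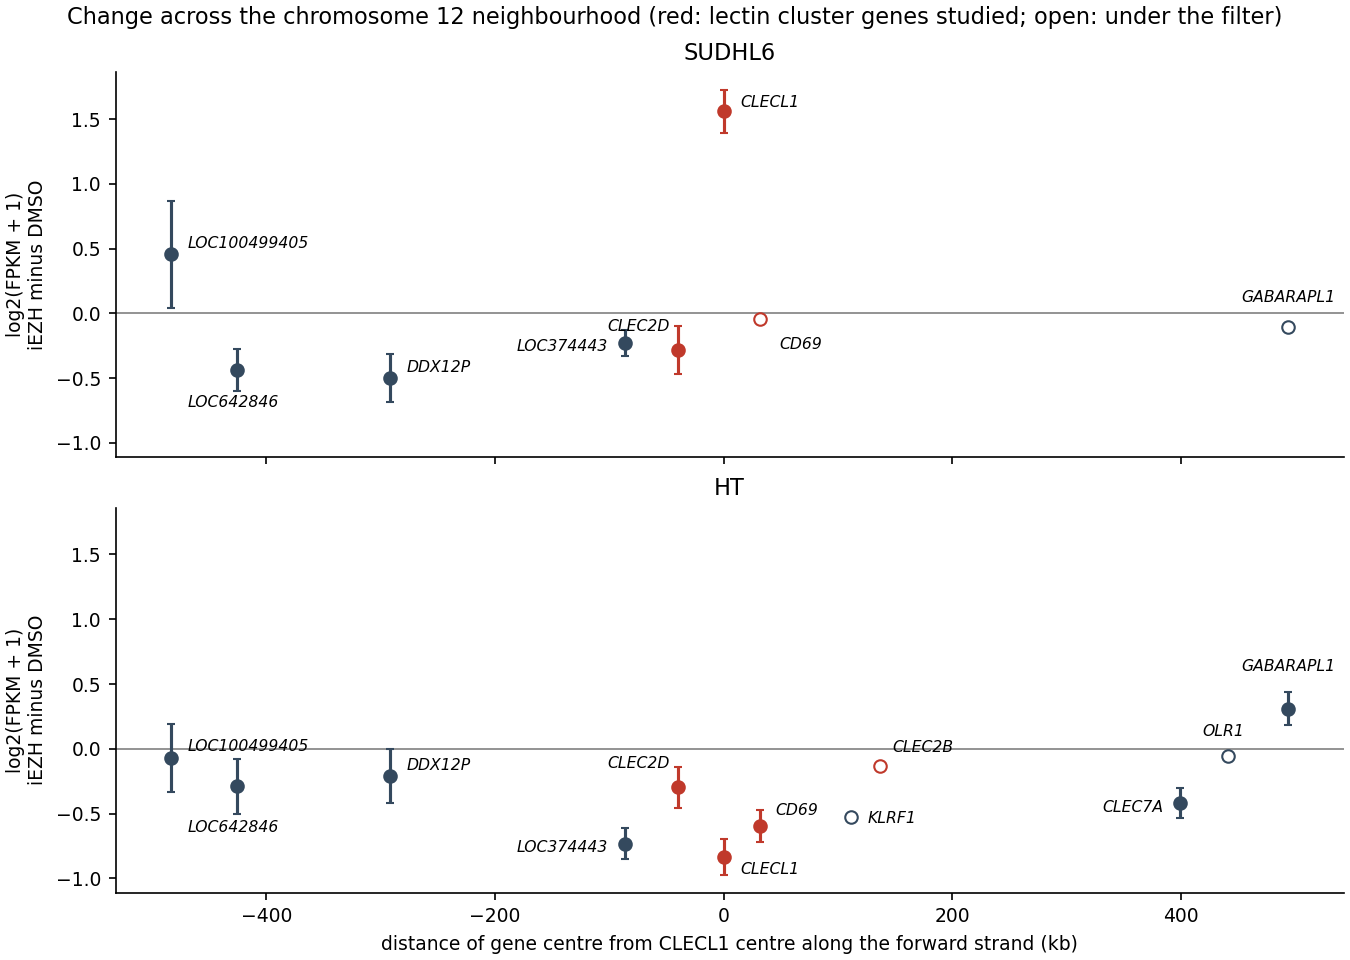
Difference between iEZH and DMSO libraries in log2(FPKM + 1) along chromosome 12, by distance of each gene's centre from that of CLECL1 in kb, SUDHL6 above and HT below. Bars are standard errors of the fit, red marks the 4 lectin genes and open circles are genes under the filter. In HT the genes around CLECL1 lie below 0 with it, and in SUDHL6 CLECL1 stands above 0 between CLEC2D and CD69, whose groups overlapped.

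Further lectin and receptor genes of the same chromosome arm were mostly without values. Of 26 listed, 3 in SUDHL6 and 6 in HT had values, and 0 of the 2 tested in SUDHL6 and 0 of the 3 tested in HT were called (limma, 0 and 1 at an unadjusted p under 0.05, beside 18.8% and 21.4% of all genes). KLRG1, an inhibitory receptor of natural killer and T cells, had 1.65 and 2.12 FPKM with iEZH, against 1.49 and 2.14 FPKM with DMSO in SUDHL6. The HT values were 2.1 and 2.84 FPKM with iEZH, against 2.16 and 2.58 FPKM with DMSO, so its groups overlapped in both lines. The pseudogene KLRAP1 overlapped in SUDHL6 as well, and in HT it had 2.87 and 2.64 FPKM with iEZH, against 2.42 and 1.96 FPKM with DMSO.

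Of 45 C-type lectin domain genes on other chromosomes or arms, 10 had values in SUDHL6 and 12 in HT. The fits called 0 of the 7 tested in SUDHL6 and 0 of the 5 tested in HT (limma, 3 and 4 at an unadjusted p under 0.05, beside 18.8% and 21.4% of all genes). The 7 tested in SUDHL6 were all higher with iEZH, 6 of them with no overlap, where 28.9% of all genes had that order, and their median log2 change was 0.49 beside 0.04 over all genes. In HT 3 were higher and 2 lower, with a median of 0.41 beside 0.02. The list was chosen with earlier results of these data known, so these counts are descriptions.

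FCER2, the low-affinity IgE receptor CD23 of B cells, had 11.7 and 5.18 FPKM with iEZH, against 2.03 and 1.3 FPKM with DMSO in SUDHL6. Its log2 difference of 1.75 ± 0.38 (SE, limma adjusted p = 0.137) did not pass the threshold in the fit without a replicate block. With 1 library left out it ran from 1.23 to 2.27 (without iEZH replicate 1 and iEZH replicate 2). CLEC17A, a lectin of dividing germinal centre B cells, had 20.9 and 27.5 FPKM with iEZH, against 10.9 and 16 FPKM with DMSO in SUDHL6. The log2 difference was 0.82 ± 0.24 (SE, limma adjusted p = 0.187). With a replicate block, whose meaning the labels do not state, FCER2 and CLEC17A both passed the threshold (limma adjusted p = 0.0104 for each).

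CD72, an inhibitory co-receptor of B cells, had its iEZH libraries above its DMSO libraries in both lines. In SUDHL6 its log2 difference was 0.58 ± 0.25 (SE, limma adjusted p = 0.315), and in HT it was 0.95 ± 0.28 (SE, limma adjusted p = 0.146). Without iEZH replicate 2 the value was 0.33 in SUDHL6 and 0.57 in HT, and without DMSO replicate 1 it was 0.37 in SUDHL6. With a replicate block CD72 passed the threshold in both lines (limma adjusted p = 0.017 in SUDHL6 and 0.00917 in HT). CLEC14A, known from endothelium, had 24.5 and 24.7 FPKM with iEZH, against 15.7 and 16.2 FPKM with DMSO in HT. Its limma adjusted p was 0.071 without the block and 0.0111 with it.

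Of 12 receptors and partners of the 4 genes, 7 had values in each line and 5 were tested in each. The fits called 0 of 5 in SUDHL6 and 0 of 5 in HT (limma, 1 and 3 at an unadjusted p under 0.05, beside 18.8% and 21.4% of all genes), with a median log2 change of 0.04 in SUDHL6 and -0.49 in HT, where all 5 were lower with iEZH. KLRB1, the receptor of CLEC2D, was not analysed here. S1PR1, which CD69 removes from the surface, had 0.835 and 1.55 FPKM with iEZH, against 0.294 and 0.653 FPKM with DMSO in SUDHL6, under the filter and without overlap.

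SLC3A2 and SLC7A5 encode the subunits of an amino acid transporter that CD69 binds. In SUDHL6 SLC3A2 had 102 and 67.9 FPKM with iEZH, against 142 and 99.6 FPKM with DMSO, and the groups overlapped (log2 difference -0.51, limma adjusted p = 0.424, and -0.80 without iEZH replicate 1, -0.76 without DMSO replicate 2, -0.25 without DMSO replicate 1 and -0.22 without iEZH replicate 2). HT cells had 86.2 and 71.4 FPKM with iEZH, against 177 and 147 FPKM with DMSO, without overlap (-1.03, limma adjusted p = 0.0574). SLC7A5 lay below its DMSO values in both lines, by a log2 difference of -0.78 in SUDHL6 (limma adjusted p = 0.218, and -0.47 without iEZH replicate 2) and -0.72 in HT (limma adjusted p = 0.0744).

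MYL12A and MYL12B encode myosin light chains that bind CD69, and LGALS1 encodes galectin, a further CD69 ligand. MYL12A in HT had 196 and 190.0 FPKM with iEZH, against 273 and 268 FPKM with DMSO (log2 difference -0.49, limma adjusted p = 0.111). MYL12B was above its DMSO values in SUDHL6 and below them in HT, the orders that CLECL1 had, without a call for the difference between lines (limma adjusted p = 0.438). LGALS1 in SUDHL6 had 37.0 and 107 FPKM with iEZH, against 29.8 and 53.9 FPKM with DMSO, a log2 difference of 0.64 (limma adjusted p = 0.632) that became -0.12 without SUDHL6 iEZH replicate 2.

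CD69 belongs to the genes that B cell activation induces, and 34 further activation and immediate-early genes were listed. Of the 30 with values in SUDHL6, 25 were tested, 20 of these were higher and 5 lower with iEZH, and 0 were called (limma, 11 at an unadjusted p under 0.05, beside 18.8% of all genes). Of the 24 with values in HT, 20 were tested, 11 were higher and 9 lower, and 0 were called (limma, 12 at an unadjusted p under 0.05, beside 21.4% of all genes). The median log2 change was 0.28 in SUDHL6 and 0.04 in HT, beside 0.04 and 0.02 over all genes tested. In SUDHL6, 15 of the 25 had both iEZH libraries above both DMSO libraries, where 28.9% of all genes had that order. In HT 9 of the 20 did, where 28.5% of all genes did. This list too was chosen with earlier results of these data known, so the counts are descriptions.

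CCR7, which guides lymphocytes to lymph nodes, had 11.6 and 19.0 FPKM with iEZH, against 2.18 and 4.05 FPKM with DMSO in SUDHL6 (log2 difference 1.99 ± 0.33, SE, limma adjusted p = 0.118). EGR2 had 8.94 and 6.06 FPKM with iEZH, against 1.77 and 3.25 FPKM with DMSO in SUDHL6 (1.29 ± 0.28, SE, limma adjusted p = 0.137), and EGR3, also an immediate-early factor, differed by 1.11 ± 0.23 (SE, limma adjusted p = 0.133). These 3 had the largest changes of the list in SUDHL6, and none passed the threshold in the fit without a replicate block. With a replicate block, whose meaning the labels do not state, all 3 passed it.

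In HT the largest changes of the list had both signs. EGR1, the immediate-early factor, had 1.95 and 6.33 FPKM with iEZH, against 5.9 and 11.9 FPKM with DMSO, with overlap (log2 difference -1.02 ± 0.51, SE, limma adjusted p = 0.333). That difference was -0.36 without iEZH replicate 1, -1.68 without iEZH replicate 2 and -0.57 without DMSO replicate 2. CD83, a maturation marker of B and dendritic cells, had 9.85 and 8.55 FPKM with iEZH, against 4.56 and 4.23 FPKM with DMSO (0.92 ± 0.13, SE, limma adjusted p = 0.0547). NR4A1, an orphan receptor induced by the antigen receptor, had 3.67 and 3.96 FPKM with iEZH, against 1.69 and 2.05 FPKM with DMSO (0.75 ± 0.13, SE, limma adjusted p = 0.0649). None of these 3 passed the threshold in the fit without a replicate block, and all 3 passed it with the block.

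Of the 19 activation genes tested in both lines, 4 had the orders of CLECL1, above in SUDHL6 and below in HT, where 3.36% of all genes did. They were IER2 and JUNB, immediate-early factors, and NFKBIA and TNFAIP3, feedback inhibitors of NF-kappaB. TNFAIP3 had 4.63 and 4.69 FPKM with iEZH, against 3.6 and 3.05 FPKM with DMSO in SUDHL6, and 3.18 and 3.16 FPKM with iEZH, against 4.82 and 6.02 FPKM with DMSO in HT. None of the 19 was called for the difference between lines (limma, 7 at an unadjusted p under 0.05, beside 11.1% of all genes). Of the 19, 6 had both iEZH libraries above in both lines, as had 1411 of the 10426 genes tested in both lines. Both iEZH libraries lay below in both lines for 2, as for 1072 of the 10426, and 0 had the reverse of CLECL1, where 2.63% did. As the list was chosen with earlier results known, no enrichment is read from these counts.

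**Figure D4:**
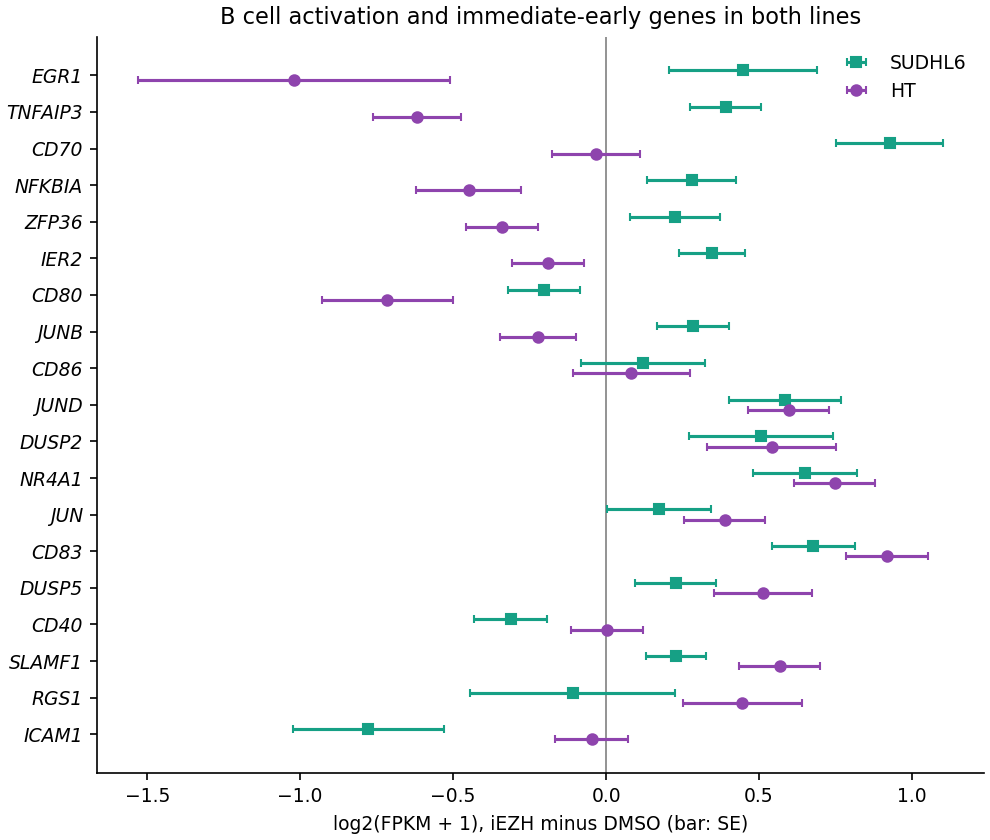
Difference between iEZH and DMSO libraries in log2(FPKM + 1) for the 19 activation and immediate-early genes tested in both lines, SUDHL6 as squares and HT as circles, with standard errors, sorted by the difference between lines. TNFAIP3, NFKBIA, IER2 and JUNB lie right of 0 in SUDHL6 and left of 0 in HT, without overlap of their groups. EGR1, ZFP36 and CD70 lie likewise, with groups that overlapped in a line, while CD83 and NR4A1 lie right of 0 in both.

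The genes whose pattern over all 8 libraries was most like that of CLECL1 were found by the root mean square distance between log2(FPKM + 1) values centred on the DMSO mean of each line. Among 10308 genes of 300 bp or more the nearest 5 were DDIT4 at 0.208, PTPN6 at 0.258, ID2 at 0.326, IL18 at 0.381 and ECI2 at 0.418. As they were picked for this pattern, their values are given without a test.

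DDIT4, a stress-induced inhibitor of mTOR, had 175 and 171 FPKM with iEZH, against 85.2 and 58.7 FPKM with DMSO in SUDHL6. DDIT4 in HT had 75.5 and 110.0 FPKM with iEZH, against 142 and 183 FPKM with DMSO. PTPN6, a phosphatase that dampens B cell receptor signalling, had 64.4 and 77.4 FPKM with iEZH, against 20.2 and 23.6 FPKM with DMSO in SUDHL6. In HT PTPN6 had 81.4 and 96.9 FPKM with iEZH, against 126 and 117 FPKM with DMSO. Both genes were above DMSO in SUDHL6 and below it in HT in every library, as CLECL1 was.

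ID2, an inhibitor of E protein transcription factors, had 20.1 and 25.4 FPKM with iEZH, against 7.35 and 8.95 FPKM with DMSO in SUDHL6. In HT it had 40.0 and 41.7 FPKM with iEZH, against 51.1 and 52.9 FPKM with DMSO. For the cytokine IL18 and for ECI2, an enzyme of fatty acid oxidation, the SUDHL6 groups were apart while the HT groups overlapped. ECI2 had 33.8 and 33.5 FPKM with iEZH, against 9.21 and 9.39 FPKM with DMSO in SUDHL6, and IL18 had 2.16 and 2.36 FPKM with iEZH, against 0.301 and 0.343 FPKM with DMSO.

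By the same distance CLEC2D was nearest to PPP2R5C (0.033), ZNF461 (0.035) and ZNF738 (0.039) over the 8 libraries. CD69, over the 4 HT libraries in which it passed the filter, was nearest to MCM4 (0.019), NEAT1 (0.024) and LOC100306951 (0.034). CD69 had 0.389 to 1.27 FPKM in these libraries, where the pseudocount of 1 shrinks a change, and differed by -1.26 with a pseudocount of 0.1. MCM4, at 85.2 to 136 FPKM, differed by -0.57, so this likeness is not one of fold change.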

How the data were processed

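RNA was sequenced from 8 libraries of SUDHL6 and HT cells. The authors deposited 1 table of FPKM per line, made with TopHat 1.4.1 and Cufflinks against hg19 per the submitters' processing notes; kit, strand and annotation are not given in the sources used here. Per the file headers, genes not rated detectable were removed. In the deposited FPKM, 239 to 507 values per library sit at 1 floor (0.0712 in SUDHL6, 0.0613 in HT). In HT 1 row without a numeric value was left out.

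Groups were taken from the labels. Limma 3.58.1 (R 4.3.3; trend, two-sided, Benjamini-Hochberg) was fitted to log2(FPKM + 1) per line, for genes reaching 1 FPKM in 2 or more of 4 libraries, and for the difference between lines, over all 8 libraries, and was tested on simulated data. FPKM are not counts, so no count test was used and precision is limited by 2 libraries per group. Alternatives were a pseudocount of 0.1, no filter, median-ratio rescaling, genes under 300 bp left out, 1 fit for both lines, a replicate block and leaving out each library. The genes and lists were chosen with earlier results of these data known. Named genes were the 4 lectin genes, all genes within 500 kb of CLECL1, up to 3 per list with the largest change, and the genes nearest in pattern. A gene that this rule names is not reported here.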

Additional observations from a re-analysis of the deposited data

Results flagged for a closer look

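Each gene here was flagged for its log2 change in SUDHL6 minus that in HT, given as a value and not as an established difference between the lines. CLECL1 was chosen for this contrast, and its difference of 2.397 is a description. PTPN6 (2.098), DDIT4 (2.091), ECI2 (1.819) and ID2 (1.714) were picked for likeness to CLECL1, so their differences are untested descriptions as well. In CLECL1, PTPN6, DDIT4 and ID2 every iEZH library lay above the DMSO libraries in SUDHL6 and below them in HT, whereas the HT libraries of ECI2 overlapped.

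Among the listed genes the same opposite orders were seen in TNFAIP3 (1.008, limma adjusted p = 0.138 for the difference), NFKBIA (0.729, limma adjusted p = 0.327), IER2 (0.537, limma adjusted p = 0.259), JUNB (0.506, limma adjusted p = 0.329) and MYL12B (0.402, limma adjusted p = 0.438). None of these 5 passed the threshold, and 3.36% of all genes tested in both lines had these orders.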

How the results depend on the processing

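With 2 libraries per group the counts of calls moved widely, and the sizes of the CLECL1 changes moved less, within the ranges given below. In SUDHL6, 30 genes were called, against 2 with genes under 300 bp left out, 348 with both lines in 1 fit, and up to 49 with 1 library left out (without DMSO replicate 1). In HT, 69 genes were called, against 12 with no filter, 615 with genes under 300 bp left out, 648 with both lines in 1 fit, and with 1 library left out 35 (without iEZH replicate 2), 45 (without iEZH replicate 1) or 108 (without DMSO replicate 2). For the difference between lines 11 were called, against 17 with a pseudocount of 0.1, 18 with no filter and 7 with genes under 300 bp left out, and 4 to 15 with 1 library left out.

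Of the genes within 500 kb of CLECL1, 1 in HT (LOC374443) was called with genes under 300 bp left out, and 1 with both lines in 1 fit. Of all listed genes, 2 in SUDHL6 and 4 in HT were called with both lines in 1 fit, 7 in HT with genes under 300 bp left out, and 0 to 1 in SUDHL6 with 1 library left out (1 without iEZH replicate 2).

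Libraries with the same replicate number deviated together from their group means (correlation over genes 0.729 in SUDHL6 and 0.618 in HT). The sample IDs set this number between line name and treatment, but no label states what it stands for. With a replicate block 2313 genes were called in SUDHL6, 2482 in HT and 543 for the difference, and with genes under 300 bp also left out 3780, 3743 and 1270. The block called 3 neighbours in SUDHL6 and 2 in HT (3 and 3 without short genes), and 21 listed genes in SUDHL6 and 20 in HT (28 and 23). Among them were CCR7, EGR2 and EGR3 in SUDHL6 (limma adjusted p = 0.000821, 0.0317 and 0.0283 with the block). In HT they included EGR1, SLC3A2, CD83 and NR4A1 (limma adjusted p = 0.00853, 0.00513, 0.0067 and 0.00936 with the block).

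Dropping the filter, leaving out short genes, adding a block or using 1 fit for both lines cannot alter the size of a change in this balanced design. In the remaining runs, with another pseudocount, rescaling or 1 library left out, CLECL1 kept its direction. Its log2 change was 1.36 to 1.76 in SUDHL6, and in HT -0.73 to -0.95 with 1 library left out and -1.06 with a pseudocount of 0.1. The difference was 2.68 with that pseudocount and 2.20 to 2.60 with 1 library left out. The near-zero CLEC2D difference changed sign in 4 of 14, within -0.18 to 0.21.

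Over 403 alternatives of 36 results of the named list and neighbour genes, 336 kept direction and side of the threshold, 66 passed it and 1 reversed, LGALS1 in SUDHL6 (-0.116 without iEZH replicate 2, up to 1.39 with another library left out). In the runs that cannot alter the size of a change, only the side of the threshold could move. Of the genes picked for likeness to CLECL1, IL18 in HT (0.013 without iEZH replicate 1, down to -0.484) and ECI2 in HT (0.03 without DMSO replicate 2, down to -0.166) changed sign. The causes were not tested. The gene filter was set on all 4 libraries of a line throughout, and with 1 library left out the lone library of its group is assumed to vary like the other group.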
